A study of Mus musculus with 12 samples.

Results

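Glutathione S-transferases were followed in mouse heart after gavage with a compound labelled DMA, a name the labels do not expand. The family was taken as 10 listed genes (Gsta4, Gstm1, Gstm2, Gstm5, Gstp1, Gstt1, Gstk1, Gsto1, Mgst1 and Mgst3), each read by the brightest of its probes that the platform annotation gives a single gene symbol. Of the 10 genes, 9 had such a probe and all 9 were tested, among 17611 genes tested in all. Gstp1 has no value here, because its probe is annotated to more than 1 gene. That probe had a value on 3 arrays. A further Mgst3 probe had no value on any array. Another Gstm2 probe (values on 12 arrays) and another Mgst3 probe (11 arrays) are each annotated to 2 genes and were not used.

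The study gavaged Balb/c mice, an inbred strain, with 30 mg DMA per kg body weight or with the vehicle DMSO, and took hearts 24 h or 48 h later. Each of the 2 agents at each of the 2 times made a group, so there were 4 groups of 3 arrays. No allele, age or sex is given for the mice, and the number of animals per group is not given. The labels call the 3 arrays of a group biological replicates, while the design text describes RNA isolated from the hearts of a group as a pool. The p-values therefore measure the spread between these arrays, which may be partly technical. In whole-heart RNA, fewer cells of a type and less RNA per cell cannot be told apart.

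Glutathione S-transferases join the thiol of glutathione to electrophilic compounds, which makes them more soluble and marks them for export. The soluble enzymes fall into classes (alpha, mu, pi, theta, omega), Gstk1 encodes the kappa enzyme of mitochondria and peroxisomes, and Mgst1 and Mgst3 encode membrane proteins of the MAPEG family (membrane-associated proteins in eicosanoid and glutathione metabolism). Many genes of the family are induced in liver and other tissues by foreign compounds through the transcription factor Nrf2, which binds antioxidant response elements.

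The promoter windows are shown for the 3 mu class genes, which are neighbours and whose values correlated over the arrays, and for Mgst1, the other member with a window that holds the core of an antioxidant response element. From Gstm5 to Gstm1 the RefSeq annotation of mouse chromosome 3 lists 6 protein-coding genes in a row: Gstm5, Gstm7, Gstm6, Gstm3, Gstm2 and Gstm1. The core TGACNNNGC was searched on both strands in RefSeq windows from 250 bases before to 50 bases after each start (GRCm38.p6). It occurred in 12.4% of all 32851 windows. Of the 11 windows of 9 listed genes 2 held it, that of Gstm5 and 1 of the 2 of Mgst1. Gsta4 was not in the table. The 250 bases before the start follow, 5′ to 3′, with a match in capitals (in Mgst1 it reads on the opposite strand). A match is a string of letters, and binding was not measured.
Gstm5, chr3:107895604-107895853 (+ strand): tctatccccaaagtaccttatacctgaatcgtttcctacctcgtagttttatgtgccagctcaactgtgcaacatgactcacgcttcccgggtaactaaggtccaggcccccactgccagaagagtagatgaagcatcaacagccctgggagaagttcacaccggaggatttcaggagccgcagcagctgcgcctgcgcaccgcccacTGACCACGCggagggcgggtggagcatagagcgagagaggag
Gstm2, chr3:107986421-107986670 (- strand): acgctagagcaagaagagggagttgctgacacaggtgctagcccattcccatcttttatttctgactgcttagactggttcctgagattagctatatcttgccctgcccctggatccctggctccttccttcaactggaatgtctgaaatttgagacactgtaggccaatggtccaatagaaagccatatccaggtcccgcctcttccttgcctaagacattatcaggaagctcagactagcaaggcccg
Gstm1, chr3:108017974-108018223 (- strand): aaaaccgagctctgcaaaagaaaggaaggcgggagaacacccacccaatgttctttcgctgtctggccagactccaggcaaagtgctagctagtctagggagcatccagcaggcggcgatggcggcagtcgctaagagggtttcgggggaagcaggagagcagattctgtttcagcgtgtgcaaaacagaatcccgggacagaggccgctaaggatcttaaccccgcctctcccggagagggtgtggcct
Mgst1, chr6:138140277-138140526 (+ strand): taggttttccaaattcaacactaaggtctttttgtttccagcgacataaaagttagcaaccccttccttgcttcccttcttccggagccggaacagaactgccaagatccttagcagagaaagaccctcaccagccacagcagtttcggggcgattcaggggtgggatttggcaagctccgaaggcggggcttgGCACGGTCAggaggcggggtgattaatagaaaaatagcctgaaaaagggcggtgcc

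Values are log2 intensities. The arrays had 32230 to 35905 values for 36227 probes, and their medians were nearly the same within a time and differed between the times, so levels set across the times may carry a separate scaling. DMA 24 h replicate 3 stood apart, with a correlation to the rest of its time of 0.742, where the other 11 arrays had 0.927 to 0.963. On that array 17.4% of the probes with a level above 10 on the others lay more than 4 log2 units below them, against at most 0.26% on any other 24 h array. On DMA 48 h replicate 3 the deviation ran along the probe numbers. Heart muscle markers were covered in part. Of 12 listed, 9 had a value and 3 were tested: Ttn had a mean of 14.21 on 10 arrays, and Myh6 (6.49) and Ryr2 (6.03) were low on all 12. Among those with too few values to test, Myl7 was at 13.58 on 7 arrays and Tnnt2 at 12.13 on 2 arrays. Actc1, Atp2a2 and Nppa had no value here. The 5 liver markers tested had means of 3.52 (Alb), 5.68 (Apoa2), 5.70 (Apoa1), 6.12 (Ttr) and 9.87 (Cyp2e1). Of the 9 members, 5 lacked 1 value each, and each missing value was on a DMSO array. Over all probes the DMSO arrays lacked 768 to 3997 values each and the DMA arrays 322 to 954.

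**Figure D1:**
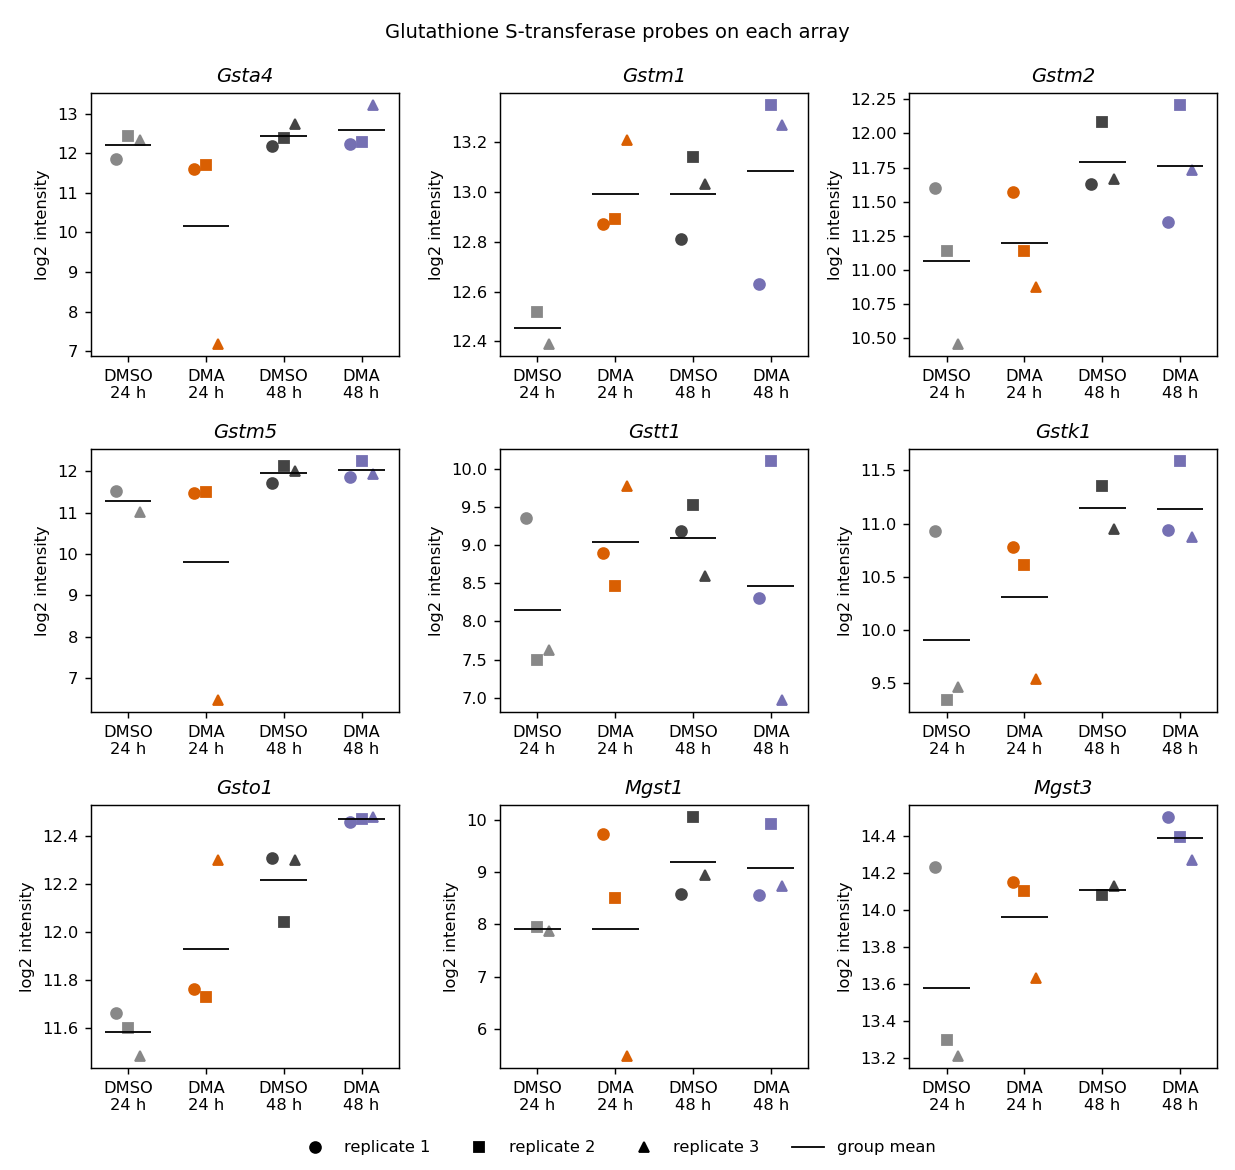
Log2 intensity (y axis) of the 9 measured glutathione S-transferases in the 4 groups (x axis), with a symbol for each replicate and a line for the group mean. Gsta4, Gstm5 and Mgst1 read 7.18, 6.47 and 5.47 on DMA 24 h replicate 3, and Gsto1 lies higher on every DMA array than on the DMSO arrays of its time.

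At neither time did a glutathione S-transferase pass the test for DMA against DMSO. Of 9 members tested with limma, 0 had an adjusted p under 0.05 at 24 h and 0 at 48 h, and 0 had an unadjusted p under 0.05 at either time. Over all 35401 probes the same test called 0 at each time (0%), and 3.03% at 24 h and 1.4% at 48 h had an unadjusted p under 0.05. Gsto1 was the member whose DMA arrays all lay above the DMSO arrays of their time at 24 h and again at 48 h, with all 12 arrays measured. That holds for the deposited values, and its groups overlapped at both times with the trend along the probe numbers removed. Gsta4 had the largest difference of the 9 members at 24 h, -2.05, and it was -0.55 without 1 array.

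Gsto1 encodes the omega class enzyme, which reduces dehydroascorbate and methylated arsenic compounds. At 24 h it read 11.66, 11.60 and 11.48 on DMSO replicates 1 to 3 and 11.76, 11.73 and 12.30 on DMA replicates 1 to 3. At 48 h it read 12.31, 12.04 and 12.30 on DMSO and 12.46, 12.47 and 12.48 on DMA. As deposited, the groups did not overlap at either time, and the SD of the DMA arrays at 48 h was 0.0106 (n = 3). The pair differences were 0.10, 0.14 and 0.82 at 24 h and 0.14, 0.43 and 0.18 at 48 h. The mean difference was 0.35 at 24 h (SE 0.296, limma adjusted p = 0.871) and 0.25 at 48 h (SE 0.296, limma adjusted p = 1), with 95% intervals of -0.30 to 1.00 and -0.40 to 0.90. Groups apart on the higher side were seen for 4.42% of all genes at 24 h and 3.95% at 48 h, and at both times for 35 genes (0.199%), against 0.0852% on the lower side at both times. Without DMA 24 h replicate 3 the 24 h difference was 0.17. Probes numbered near that of Gsto1 were also raised on both DMA arrays of number 3, by a median of 0.61 at 24 h and 0.35 at 48 h. At 24 h the median near Gsto1 was -0.17, 0.18 and 0.17 on DMSO replicates 1 to 3 and -0.04, -0.22 and 0.61 on DMA. At 48 h it was -0.15, -0.01 and -0.11 on DMSO and -0.06, 0.08 and 0.35 on DMA. With this trend removed from every array, the Gsto1 difference was 0.30 at 24 h and 0.04 at 48 h, and the groups overlapped at both times. Without DMSO 48 h replicate 2 the 48 h difference was 0.16.

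Gsta4 is the alpha class enzyme that conjugates hydroxynonenal, an aldehyde made when membrane lipids are oxidised. At 24 h it read 11.86, 12.44 and 12.33 on DMSO replicates 1 to 3 and 11.61, 11.71 and 7.18 on DMA replicates 1 to 3. All 3 DMA arrays were below all 3 DMSO arrays, a separation seen on the lower side for 3.29% of all genes. The mean was 12.21 ± 0.31 (SD, n = 3) after DMSO and 10.16 ± 2.59 (SD, n = 3) after DMA, which differ by -2.05 (SE 0.96, 95% interval -4.15 to 0.06, limma adjusted p = 0.871). The pair differences were -0.25, -0.74 and -5.15. Without DMA replicate 3 the difference was -0.55 (SE 0.361, limma adjusted p = 1), with an interval of -1.36 to 0.26. At 48 h Gsta4 read 12.18, 12.39 and 12.73 on DMSO and 12.24, 12.28 and 13.23 on DMA, so the groups overlapped. That difference was 0.15 (SE 0.96, limma adjusted p = 1). It was -0.18 without DMA 48 h replicate 3, where probes of nearby number were raised by a median of 0.43, 0.02 without DMSO replicate 1 and 0.32 without DMA replicate 1.

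The mu class genes Gstm1, Gstm2 and Gstm5 encode closely related soluble enzymes. Their probe sequences were not used here, so signal from a related gene could not be told apart from that of the named one. Gstm1 read 12.52 and 12.39 on the DMSO 24 h arrays with a value (replicates 2 and 3) and 12.87, 12.89 and 13.21 on DMA replicates 1 to 3. These groups, of 2 and 3 arrays, did not overlap, as was seen on the higher side for 4.42% of all genes. That share was not matched for the number of arrays, and groups of fewer arrays separate more readily. The difference was 0.53 (SE 0.368, limma adjusted p = 0.871). Its pair differences were 0.37 in the second pair and 0.82 in the third. Without DMA replicate 3 the 24 h difference was 0.43 (SE 0.322), and with the trend along the probe numbers removed it was 0.30. At 48 h Gstm1 read 12.81, 13.14 and 13.03 on DMSO and 12.63, 13.35 and 13.27 on DMA, and the groups overlapped (difference 0.09, SE 0.329, limma adjusted p = 1).

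Gstm2 had differences near 0 at both times. It read 11.60, 11.14 and 10.46 on DMSO and 11.57, 11.14 and 10.88 on DMA at 24 h. At 48 h the values were 11.63, 12.08 and 11.67 on DMSO and 11.35, 12.21 and 11.73 on DMA. The groups overlapped at both times, with pair differences of -0.03, 0.00 and 0.41 at 24 h and -0.28, 0.12 and 0.07 at 48 h. The fitted differences were 0.13 (SE 0.393) and -0.03 (SE 0.393), with 95% intervals of -0.73 to 0.99 and -0.89 to 0.83. Without DMA 24 h replicate 3 the 24 h difference was 0.29 (interval -0.59 to 1.16). With the trend along the probe numbers removed the differences were 0.02 at 24 h and -0.26 at 48 h (intervals -0.97 to 1.01 and -1.25 to 0.72).

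Gstm5 had values of 11.53 and 11.01 on DMSO 24 h replicates 1 and 3. On DMA at 24 h it read 11.47, 11.51 and 6.47. The third DMA array alone was low, and the difference of -1.45 (SE 1.22, limma adjusted p = 0.871) became 0.22 (SE 0.308) without it. With the replicate number as a block it was -2.30 (SE 0.998, limma adjusted p = 0.676). At 48 h the values were 11.71, 12.13 and 12 on DMSO and 11.87, 12.25 and 11.94 on DMA, and the fitted value was 0.08 (SE 1.09, limma adjusted p = 1). The SE at 48 h also carries the low 24 h value, since the spread was pooled over the 4 groups, and it was 0.252 without that array.

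Gstt1, of the theta class, acts on small halogenated compounds and had the widest spread at 48 h. At 24 h it read 9.35, 7.49 and 7.62 on DMSO and 8.90, 8.46 and 9.77 on DMA, and the groups overlapped. The difference was 0.89 (SE 0.756, limma adjusted p = 0.871). It was 0.52 without DMA replicate 3 and 1.49 without DMSO replicate 1. At 48 h Gstt1 read 9.18, 9.52 and 8.59 on DMSO and 8.31, 10.10 and 6.97 on DMA. The highest and the lowest value of that time were both DMA arrays. The 48 h difference was -0.64 (SE 0.756, limma adjusted p = 1), against 0.11 without DMA replicate 3 and -1.46 without DMA replicate 2. On DMA 48 h replicate 3 the Gstt1 probe deviated by -2.21 from the rest of its time, and probes of nearby number deviated there by a median of -0.95. With that trend removed the difference was -0.29.

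**Figure D2:**
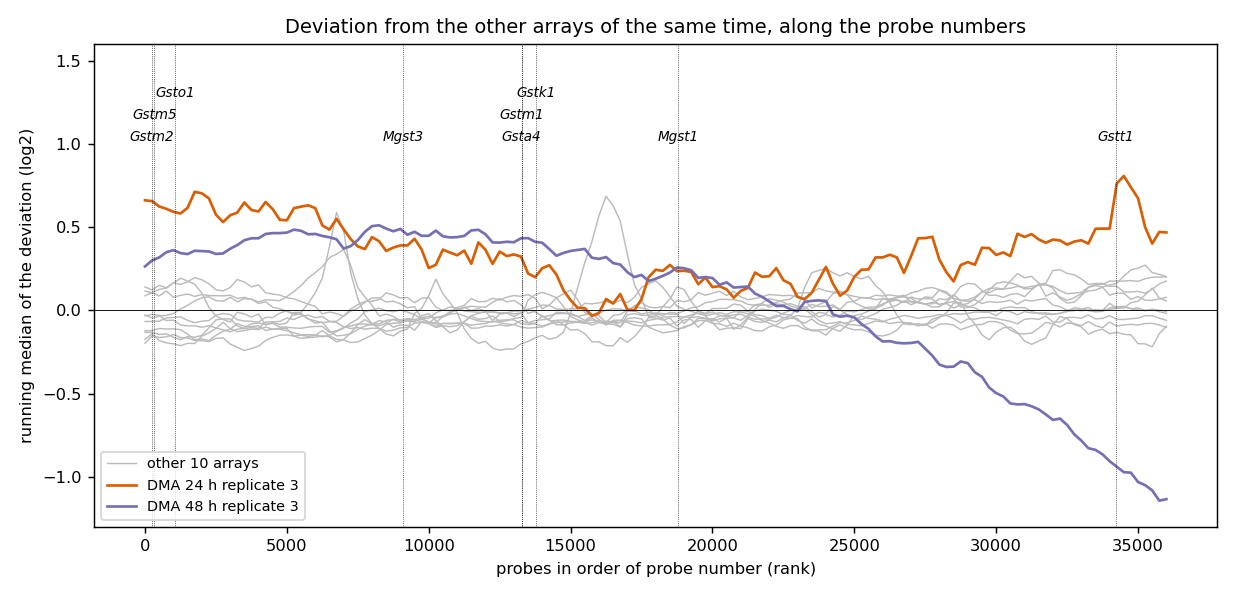
Running median over 1001 probes of the deviation of each array from the median of the other arrays of its time (y axis, log2), along the probes in order of probe number (x axis, rank). Dotted lines mark the members: the curve of DMA 48 h replicate 3 is at 0.30 to 0.49 at Gstm2, Gstm5, Gsto1, Mgst3, Gsta4, Gstm1 and Gstk1, at 0.27 at Mgst1 and at -0.95 at Gstt1. The grey curve that reaches 0.69 is DMSO 24 h replicate 2.

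Gstk1, of the kappa class, read 10.93, 9.34 and 9.46 on DMSO at 24 h and 10.78, 10.61 and 9.54 on DMA. Both replicate 1 arrays and DMA replicate 2 were high, and the other 3 arrays were more than 1 log2 unit lower. The difference was 0.40 (SE 0.514, limma adjusted p = 0.887). It was 0.91 without DMSO replicate 1, 0.12 without DMSO replicate 2 and 0.78 without DMA replicate 3. At 48 h Gstk1 read 11.35 and 10.95 on DMSO replicates 2 and 3 and 10.94, 11.59 and 10.87 on DMA. The 48 h groups overlapped, with a difference of -0.02 (SE 0.574, limma adjusted p = 1).

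Of the membrane-bound enzymes, Mgst3 has glutathione transferase and peroxidase activity and Mgst1 protects membranes from oxidised lipids. Mgst3 read 14.23, 13.30 and 13.21 on DMSO at 24 h and 14.15, 14.10 and 13.63 on DMA. The difference was 0.38 (SE 0.365, limma adjusted p = 0.871), 0.70 without DMSO replicate 1 and 0.19 without DMSO replicate 3. At 48 h it read 14.08 and 14.13 on DMSO replicates 2 and 3 and 14.50, 14.39 and 14.27 on DMA. These groups, of 2 and 3 arrays, did not overlap, as was seen on the higher side for 3.95% of all genes, a share not matched for the number of arrays. The 48 h difference was 0.28 (SE 0.408, limma adjusted p = 1). With the trend along the probe numbers removed it was 0.11, and the groups overlapped.

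Mgst1 was measured on 2 DMSO arrays at 24 h (replicates 2 and 3), at 7.96 and 7.88. DMA replicates 1 to 3 read 9.74, 8.51 and 5.47, on both sides of the DMSO values. The pair differences were 0.55 in the second pair and -2.4 in the third, and DMA replicate 1 had no partner. The difference was -0.01 (SE 1.03, limma adjusted p = 0.999), and 1.21 (SE 0.644, limma adjusted p = 1) without DMA replicate 3. With the replicate number as a block it was -0.93, and without DMA replicate 1 also -0.93. At 48 h Mgst1 read 8.59, 10.06 and 8.94 on DMSO and 8.56, 9.93 and 8.74 on DMA. All 3 pair differences were below 0, at -0.04, -0.13 and -0.20, while the replicates of each group spread over more than 1 log2 unit. The fitted difference was -0.12 (SE 0.924, limma adjusted p = 1).

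**Figure D3:**
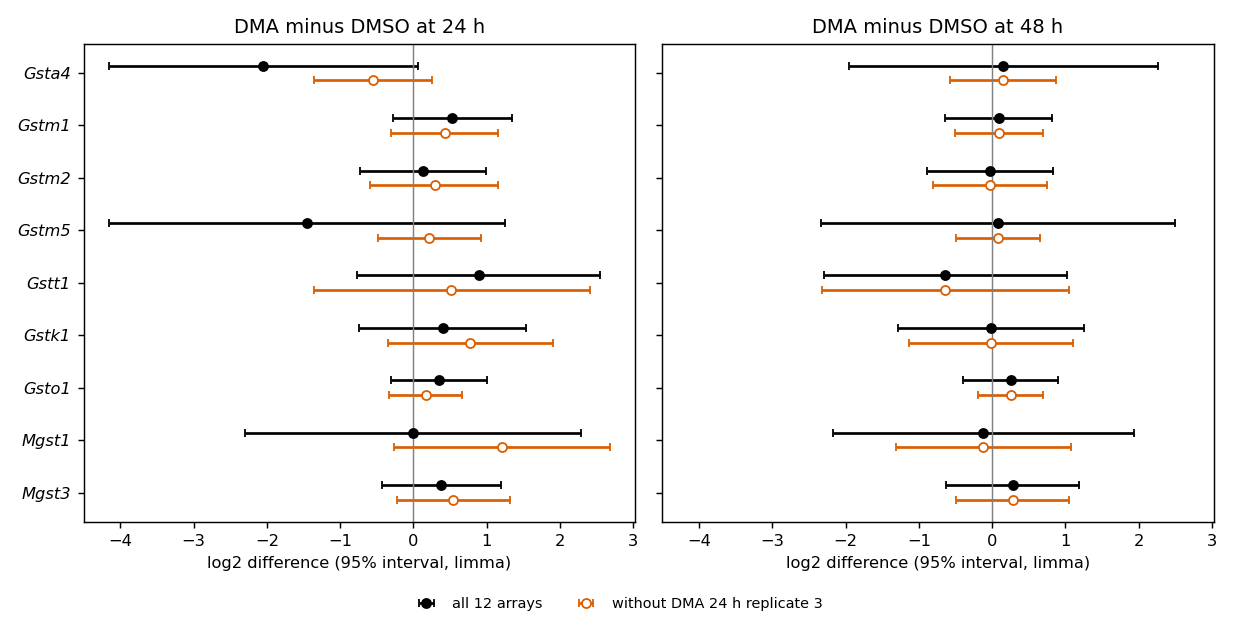
Log2 difference of DMA minus DMSO (x axis) with its 95% interval for each member at 24 h (left) and 48 h (right), from all 12 arrays (black) and without DMA 24 h replicate 3 (orange). Every interval includes 0, and the 24 h values of Gsta4 and Gstm5 go from -2.05 to -0.55 and from -1.45 to 0.22 when that array is left out.

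Across the family at 24 h, 6 of 9 members had a difference above 0 and the median was 0.35. Over all genes 55.2% were above 0, with a median of 0.09. Groups did not overlap for 2 members on the higher side (Gstm1, with 2 DMSO arrays, and Gsto1), where 4.42% of all genes lay. On the lower side they did not overlap for 1 (Gsta4), where 3.29% lay. Without DMA replicate 3, and with DMSO replicate 3 kept, 8 of 9 members were above 0 with a median of 0.43. Over all genes these were 50.2% and 0.00, and of the members Gsta4 alone was below 0. With both arrays of the third pair left out, 6 of 9 members were above 0 with a median of 0.26. The median was 0.16 without DMA replicate 1, 0.16 without DMSO replicate 2, and 0.17 without DMSO replicate 3. By pairs, in the first pair 1 of 7 members was higher on the DMA array (median -0.08), in the second 6 of 8 (median 0.46) and in the third 6 of 9 (median 0.41). At 48 h, 5 of 9 members were above 0 with a median of 0.08, against 51.4% and 0.01 over all genes. Groups did not overlap for 2 members on the higher side (Gsto1, and Mgst3 with 2 DMSO arrays), where 3.95% of all genes lay. On the lower side this held for 0, where 2.33% lay. The count at 48 h was 8 without DMA replicate 1 and 8 without DMSO replicate 2. It was 3 without DMA replicate 2, 3 without DMSO replicate 1 and 3 with the trend along the probe numbers removed.

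**Figure D4:**
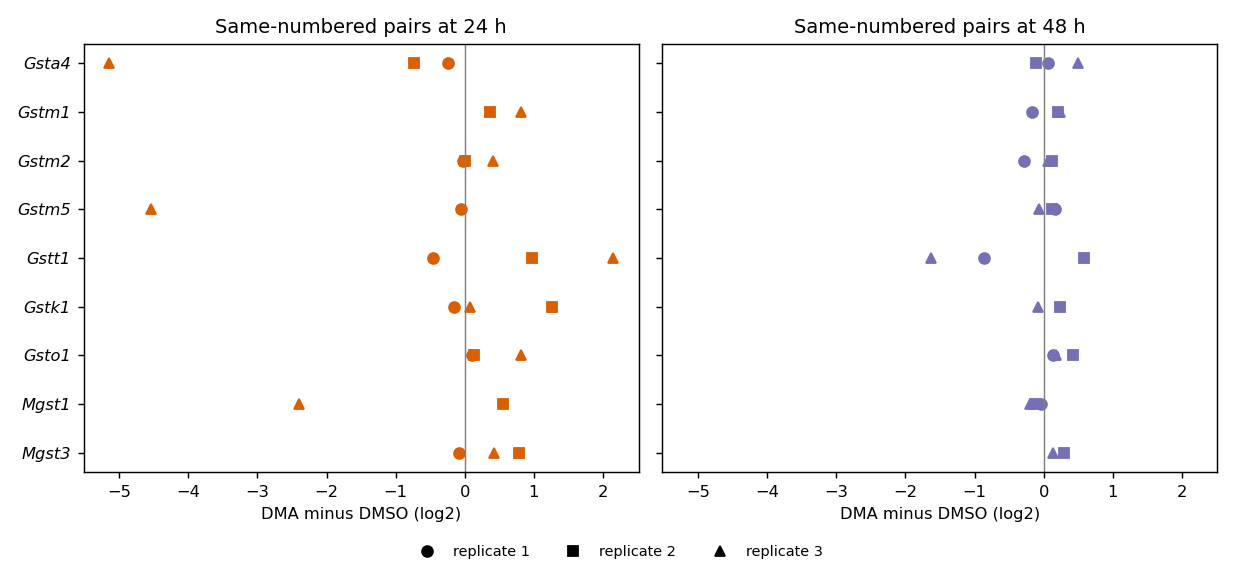
DMA minus DMSO within each same-numbered pair of arrays (x axis, log2) for the 9 members at 24 h (left) and 48 h (right), with a symbol for each replicate number and none where a value is missing. At 24 h Gsta4, Gstm5 and Mgst1 reach -5.15, -4.54 and -2.40 in the third pair, and Gsto1 lies above 0 in every pair.

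The DMA effects at the 2 times were compared directly. The difference of the effect, 48 h minus 24 h, was 2.20 for Gsta4 (SE 1.36) and -1.53 for Gstt1 (SE 1.07), each with a limma adjusted p of 0.999. It was 0.70 for Gsta4 without DMA 24 h replicate 3. For Gstt1 leaving out the third DMA array of 48 h gave -0.78, leaving out the second gave -2.35, and the value was -0.89 with the trend along the probe numbers removed. Of 9 members 0 passed, 0 had an unadjusted p under 0.05, and over all probes 0 passed (0%), with 1.96% at an unadjusted p under 0.05.

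Correlations among the members differed by gene. With DMA 24 h replicate 3 left out and each gene set to its mean at each time, the median Pearson correlation of the 36 member pairs over 9 to 11 arrays was 0.51, and that of all pairs of 12441 genes was -0.00177. These arrays share labelling and scaling, and the correlations are descriptions. The members had means of 8.58 to 14, above the array medians of 6.03 to 6.36. The pairs over all genes were not matched for level. Among the 7 members other than Gsta4 and Gsto1 each pair correlated above 0, from 0.309 for Gstm1 and Gstt1 to 0.891 for Gstm5 and Gstk1. Gstm2 and Gstm5 correlated at 0.863, Gstm1 and Gstm2 at 0.792, and Gstk1 and Mgst3 at 0.861. Gsta4 correlated below 0 with each of the other 8 members, at -0.799 with Gstt1 and -0.749 with Gstk1. Gsto1 correlated at 0.648 with Mgst3, at 0.168 with Gstm2 and at -0.082 with Gstt1.

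Over all 9 members the median deviation from each gene's 24 h median was 0.37, -0.23 and -0.49 on DMSO replicates 1 to 3 and 0.22, 0.04 and -0.26 on DMA replicates 1 to 3. For the 7 members other than Gsta4 and Gsto1, set aside after their correlations were seen, it was 0.46 on DMSO replicate 1, 0.29 on DMA replicate 1 and 0.04 on DMA replicate 2. It was -0.45 on DMSO replicate 2, -0.61 on DMSO replicate 3 and -0.26 on DMA replicate 3. The mean of 8 endothelial markers had the same signs on those arrays, at 0.50, 0.36, 0.02, -1.07, -1.05 and -0.93 in that order. The mean of 6 smooth muscle and pericyte markers did too, at 0.80, 0.49, 0.15, -0.32, -0.52 and -1.58. So did the means of the 3 heart muscle markers (0.67, 0.35, 0.24, -0.63, -0.58 and -0.05), of 7 fibroblast markers (0.29, 0.36, 0.28, -0.65, -0.23 and -2) and of 3 macrophage markers (0.47, 0.63, 0.22, -1.26, -0.50 and -0.21). The last value of each list is from DMA 24 h replicate 3. There 17.4% of probes above 10 on the other arrays lay more than 4 log2 units below them. Whether the signs on that array reflect more than this drop was not tested. Some markers had low mean levels, among them Flt1 (3.6) and Cdh5 (4.42) of the endothelial list and Myh6 (6.49) and Ryr2 (6.03) of heart muscle. The signs differed for 3 adipocyte markers (-0.61, -0.56, 0.21, -0.03, 0.29 and 0.64) and for 5 liver markers (0.57, 0.13, -0.38, 0.19, -0.44 and -0.45). They also differed for the 1 red cell marker, at -0.07 on DMSO replicate 1 and 0.18 on DMA replicate 3. At 48 h the 7 members were highest on both arrays of number 2, at 0.38 on DMSO and 0.51 on DMA (0.16 and 0.28 over all 9). The endothelial markers were at 0.07 and -0.39 there, and the smooth muscle and pericyte markers at 0.62 and 0.53. Heart muscle markers were at -0.07 and 0.08, fibroblast markers at -0.29 and 0.03, and macrophage markers at 0.08 and 0.85. Adipocyte markers were at 0.25 and -0.46, liver markers at 0.17 and 0.55, and the red cell marker at 0.46 and 0.04. On the 48 h arrays of number 1, heart muscle markers were at 1.31 (DMSO) and 1.23 (DMA), and the 7 members at -0.24 and -0.28. The part of these cell types in the member values was not tested.

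The genes of most similar profile were sought for Mgst3, Gstm1 and Gsto1, the members of highest mean over all 12 arrays, a mean that holds the low Gsta4 value of DMA 24 h replicate 3. Over the arrays without that one they were Ctsk and Orc6 for Mgst3 (r = 0.973 and r = 0.973, 10 arrays), Atp6v1f and Chchd6 for Gstm1 (0.962 and 0.949, 10 arrays), and Onecut1 and Olfr1225 for Gsto1 (0.93 and 0.871, 11 arrays). They are the highest of 12441 candidates and were picked for that.

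Vehicle hearts gave the background between the times. All 9 members had a higher mean in DMSO hearts at 48 h than at 24 h, with a median difference of 0.68, and in 6 of 9 the groups did not overlap. Over all genes 80.8% were higher, the median was 0.42, and 34.9% did not overlap on the higher side, with 1.59% on the lower side. Of the members without overlap, Gstm1, Gstm5 and Mgst1 had 2 DMSO arrays at 24 h and Gstk1 had 2 at 48 h. Gstm2 and Gsto1 had 3 arrays on each side. Groups of fewer arrays separate more readily, and the share over all genes was not matched for the number of arrays. The differences ran from 0.22 for Gsta4 to 1.28 for Mgst1 (SE 1.03), with Gstk1 at 1.24 (SE 0.574) and 0 of 9 members passing (limma adjusted p of 0.692 to 0.963; 0 of all probes passed, 0%, and 7.27% had an unadjusted p under 0.05). After quantile normalization over the 12 arrays, which set the median of all genes to 0.02, the median of the members was 0.20 and Gsta4 was at -0.24. In group means as deposited, Gsto1 stood in the order DMSO 24 h (11.58 ± 0.0916), DMA 24 h (11.93 ± 0.317), DMSO 48 h (12.22 ± 0.155) and DMA 48 h (12.47 ± 0.0106), each SD over 3 arrays. After quantile normalization that order was 11.85, 12.15, 12 and 12.19, so the place of DMA 24 h and DMSO 48 h depended on the scaling.

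Other glutathione transferases, MAPEG genes and a few genes listed with them, and the genes that make, recycle and use glutathione, also did not pass. Of 27 listed relatives 18 were tested, and these include Clic4, Clic5 and Ptges2, which are neither glutathione transferase nor MAPEG genes. At 24 h 11 were above and 7 below 0 (median 0.23), against 55.2% of all genes above 0 (median 0.09). Of the 18, limma called 0, also at an unadjusted threshold of 0.05, which 3.03% of all probes passed. Gstt4 differed by 2.48 (SE 1.2, limma adjusted p = 0.871) and by 0.64 without DMSO replicate 3, and Ptges, a prostaglandin E synthase, by 0.81 (SE 0.453) and by 0.50 without DMSO replicate 2. On the lower side Gstm7 was at -1.91 (SE 1.7) and Gstt2 at -0.79 (SE 0.774), and both were positive without DMA replicate 3, at 0.46 and 0.28. Without that array 16 of the 18 were above 0 (median 0.58), against 50.2% of all genes (median 0.00). At 48 h 4 were above and 14 below 0 (median -0.04), against 51.4% of all genes above 0 (median 0.01). Gstt4 was at 0.64 (SE 1.2), Mgst2 at 0.14 (SE 0.522), Clic5 at -0.41 (SE 0.468) and Ltc4s, the leukotriene synthase, at -0.24 (SE 0.323). Without DMA 48 h replicate 3, 12 of 18 were above 0, against 50.8% of all genes, and Gstt4 was at 0.27 and Clic5 at 0.16. Mgst2 was at -0.47 and Ltc4s at -0.03 without DMSO 48 h replicate 3.

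Of 45 listed genes of glutathione synthesis, recycling and export and of the Nrf2 response, 39 were tested and limma called 0 at either time. Without adjustment 1 passed 0.05 at 24 h and 0 at 48 h, where 3.03% and 1.4% of all probes did. At 24 h 16 were above and 23 below 0 (median -0.08), against 55.2% of all genes above 0 (median 0.09). Chac1, which degrades glutathione, differed by 2.22 (SE 0.799, limma adjusted p = 0.871) and by 1.51 without DMSO replicate 2, and Nqo1, a quinone reductase and Nrf2 target, by 1.43 (SE 0.725) and by 0.68 without the same array. Keap1, the inhibitor of Nrf2, was at -1.35 (SE 0.837) and Esd, an esterase that frees glutathione from its formyl ester, at -2.16 (SE 1.44). Without DMA replicate 3 these were -0.05 and 0.21, and 28 of the 39 genes were above 0 (median 0.35), against 50.2% of all genes (median 0.00). At 48 h 10 were above and 29 below 0 (median -0.23), against 51.4% of all genes above 0 (median 0.01). Gpx2, a glutathione peroxidase, was at 0.68 (SE 0.472) and Hmox1, heme oxygenase, at 0.39 (SE 0.708). Gsr, glutathione reductase, was at -0.92 (SE 0.46) and Ggt7 at -0.98 (SE 0.75). Without DMA 48 h replicate 3, 23 of 39 were above 0 (median 0.09), against 50.8% of all genes (median 0.01). Gpx2 was at 0.32 without DMSO replicate 2, Hmox1 at 0.10 without DMA replicate 2 and Gsr at -0.46 without DMSO replicate 1.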

How the data were processed

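Total RNA of myocardium was copied into biotinylated cRNA and read with Cy5-streptavidin on 1-colour arrays, per the labels' protocols. The authors deposited log2 values of 36227 probes on 12 arrays; background correction and normalization are not given in the sources used here. The log2 base was taken from the range of the values. Probe symbols came from the platform annotation (21615 probes with 1 symbol, 681 with several, 13931 with none; 21487 found by identifier in the RefSeq table, 0 symbols updated). The 35401 probes with at least 2 values in each group went into 1 linear model with 4 group means (lmFit, then eBayes; limma 3.58.1, R 4.3.3). Adjusted p-values are Benjamini-Hochberg values over the whole table, called below 0.05. The number of arrays limits the precision. Differences are DMA minus DMSO on the log2 scale.

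Members, lists and tests were chosen with earlier results of these data known. The rule named all members, and at each time the 2 genes per direction of smallest p from each of the related lists. Same-numbered DMA and DMSO arrays had deviations from their group means with Pearson's r from 0.105 to 0.19 (24 h) and from 0.276 to 0.335 (48 h); for arrays of unlike number r ran from -0.208 to -0.0118. The numbers were therefore taken to pair the arrays, which the labels do not state. Deviations from a mean of 3 arrays sum to about 0, so the negative r partly follow from the positive ones. The main fit left the pairing out, and the replicate block was run as an alternative. The fit was tested on simulated data. Of 24 alternative settings 20 were planned, and 4 were added after seeing the data: leaving out the third pair at each time, leaving out both DMA arrays of number 3, and removing the trend along the probe numbers (running median of 1001 probes). Figures used Python 3.11.15 and matplotlib 3.10.9.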

Additional observations from a re-analysis of the deposited data

How the results depend on the processing

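Under all alternatives run, 0 members passed (smallest limma adjusted p = 0.535 for DMA against DMSO, Gsta4 at 24 h without DMA replicate 2, and 0.195 in the vehicle comparison, Gsto1 without DMA 24 h replicate 3). Counts of probes called stayed at 0 except on leaving out an array, where they ranged from 0 to 14 at 24 h (9 without DMA replicate 1 and 14 without DMA replicate 2), 0 to 1 at 48 h, 0 to 4 for the difference between the times and 0 to 1 for the vehicle comparison. The cause was not tested. The replicate block changed no call. With it Gstk1 at 48 h was at 0.08, and Gstm5 in the vehicle comparison at -0.17.

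Leaving out 1 array gave ranges of 3 to 8 members above 0 at 48 h and 2 to 4 for the difference between the times, whose count with all arrays was 2. The vehicle median ranged from 0.47 (without DMSO 24 h replicate 3) to 0.93 (without DMSO 24 h replicate 1) and was 0.20 after quantile normalization, with Gsta4 at -0.24. The member differences whose sign turned ranged, at 24 h, from -0.17 to 0.39 for Gstm2, -2.30 to 0.22 for Gstm5 and -0.93 to 1.21 for Mgst1. At 48 h the ranges were -0.18 to 0.32 for Gsta4, -0.04 to 0.32 for Gstm1, -0.25 to 0.18 for Gstm2, -0.04 to 0.17 for Gstm5, -1.46 to 0.11 for Gstt1, -0.25 to 0.18 for Gstk1 and -0.55 to 0.31 for Mgst1. With array weights the sign turned for Gstm5 (0.19) and Mgst1 (1.24) at 24 h and for Gsta4 (-0.04), Gstm2 (0.03), Gstk1 (0.11) and Mgst1 (0.03) at 48 h. Without the third pair it turned for Gstm2 (-0.01) and Mgst1 (1.17) at 24 h and Gsta4 (-0.03) at 48 h. Quantile normalization put Gstm1 at 48 h at 0.00. With the trend along the probe numbers removed, Gstm1 was at -0.03 and Gstm5 at -0.15 at 48 h, and 3 members were above 0. Averaging all probes of a gene changed no member, since each had 1 probe with values that carries a single symbol.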
